A study of Mus musculus with 10 samples.

Results

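Trimethylation of histone H3 at lysine 4 (H3K4me3) was compared between embryoid bodies (EBs) grown for 10 days and undifferentiated cells of the mouse embryonic stem (ES) cell line XT67E1. The autosomes, chromosomes 1 to 19 of the mm9 build, were divided into 1236167 bins of 2 kb, and each sequenced fragment was counted in the bin that held its midpoint. A bin was kept where the 2 libraries together held at least 20 reads, which left 15229 bins. A kept bin was called gained or lost where its level in EBs, scaled to reads on autosomes, was at least 2-fold higher or lower than in undifferentiated cells and the exact 95% interval of the ratio excluded 1. By this rule 438 bins gained H3K4me3 in EBs and 1955 lost it. Regions are named by mm9 position, counted from 1. Genes are not named, since gene positions on mm9 were not used here.

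The study profiled H3K4me3 and H3K27me3, the trimethylation of lysine 27, by chromatin immunoprecipitation and sequencing in 10 libraries, of which the 2 compared here are the XT67E1 H3K4me3 libraries of EBs and of undifferentiated cells. EBs were made by withdrawing leukaemia inhibitory factor (LIF) for 10 days. A further XT67E1 H3K4me3 library came from cells given all-trans retinoic acid (atRA) for 4 days. Undifferentiated cells grew on gelatin in serum with LIF. XT67E1 carries the strain label C3H/Pgk*129, and the lines LF2 and E14, used here for H3K27me3 alone, carry the label 129/Ola. The H3K4me3 antiserum was from Diagenode and the H3K27me3 antiserum from T. Jenuwein. Each line, condition and mark is represented by 1 library. The labels do not say how many EBs were pooled or which cell types they held, and without gene positions the marker genes of ES cells and of differentiated cells were not placed.

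H3K4me3 is placed by methyltransferases of the SET1 and MLL families, mostly on nucleosomes around the start sites of active genes. H3K27me3 is placed by Polycomb repressive complex 2 at silent genes, and in ES cells many promoters of developmental genes carry both marks, a state called bivalent. When LIF is withdrawn, aggregated ES cells leave the self-renewing state and form EBs that hold cells of several lineages, in which some such promoters keep H3K4me3 and others keep H3K27me3. EBs are mixed tissue, so a lower read number can mean that fewer cells carry the mark or that each cell carries less of it, and these cannot be told apart in bulk chromatin.

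Each H3K4me3 file listed 2252395 reads, of which 2156801 in EBs, 2153974 after atRA and 2156836 in undifferentiated cells lay on autosomes. With 1 library a side no replicate error can be estimated. All intervals for H3K4me3 therefore cover counting error only, and no p-value is given. Log2 ratios are EBs over undifferentiated cells, with 1 read added to each count. RPM stands for reads per 1000000 autosomal reads. EBs and atRA-treated cells have the same undifferentiated library as their control. The atRA level is therefore given beside the EB level and their changes are not compared. The rule favours a low undifferentiated count in gains and a high one in losses. An atRA level on the same side as EBs is thus in part built in and is no check of a call.

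Marked bins as a whole held a smaller share of H3K4me3 reads in EBs. The median log2 ratio over the 15229 kept bins was -0.33 (quartiles -0.74 and 0.09), and the kept bins held 17.9% of autosomal reads in EBs, 21.6% after atRA and 23.7% in undifferentiated cells. Bins chosen without either compared library also held a smaller share in EBs. The 14077 bins with at least 10 reads in the atRA library held 17.0% of EB reads, against 22.0% of undifferentiated reads. In the 4311 bins with at least 40 atRA reads the shares were 8.78% in EBs and 12.0% in undifferentiated cells. Outside the kept bins the read density in EBs was 1.05 to 1.10 times that in undifferentiated cells on the 19 autosomes. Levels are scaled to autosomal reads, so a smaller share in kept bins has to go with a higher mean density outside them. The share of reads in marked bins moves with the count of losses, and its part in that count was not tested.

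Because of this shift the calls depended on the scaling. With autosomal reads as the scale, 2.88% of kept bins gained the mark and 12.8% lost it. With the median ratio of kept bins set to 0, 6.61% gained it and 7.07% lost it, which is 1006 and 1076 bins. All 438 gained bins were also gained on the median scale, where they made up 43.5% of the gains. Of the 1955 lost bins, 1076 were also lost on the median scale, a share of 55.0%, and these were all of the losses there. The median scale moves every log2 ratio up by the same amount. Each gain therefore had to stay a gain, and each loss there had to be a loss on autosomal reads. This overlap follows from the scaling and is no check of the calls. The 438 gains and 1076 losses are those called under both scalings. The remaining 879 losses are lower than undifferentiated cells on autosomal reads but not past the rule relative to the median kept bin.

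**Figure D1:**
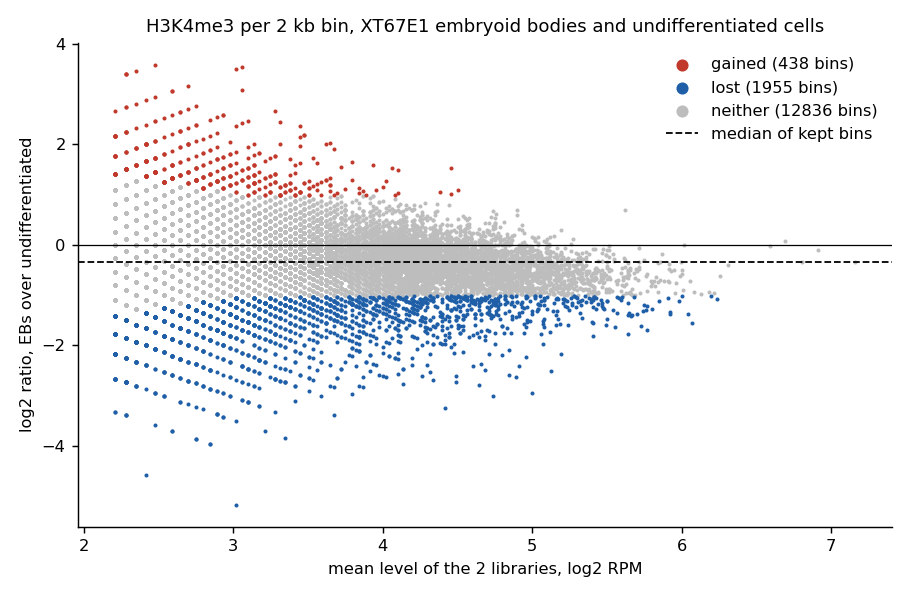
Each point is a kept 2 kb bin of XT67E1; the horizontal axis is the mean of the EB and undifferentiated levels (log2 RPM) and the vertical axis the log2 ratio of EBs over undifferentiated cells, with gained, lost and other bins coloured and the median of -0.33 dashed. The 1955 lost bins lie below the bulk and reach higher levels than the 438 gained bins.

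Gained bins were modest in level. They held 15 to 71 reads in EBs (median 23), 1 to 90 after atRA (median 17) and 1 to 31 in undifferentiated cells (median 7). Their median log2 ratio was 1.44 (quartiles 1.25 and 1.77), or 1.77 relative to the median kept bin. A gain of 4-fold or more was seen in 82 bins, and of 8-fold or more in 11. The rule itself asks for a low undifferentiated count in a gained bin, so these levels are a description. The 12836 bins called neither way had a median of 23 reads in EBs, 27 after atRA and 26 in undifferentiated cells. Summed over the 438 bins, there were 10994 reads in EBs, 8711 after atRA and 3626 in undifferentiated cells.

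Lost bins spanned a wider range of levels. They held 0 to 105 reads in EBs (median 11), 0 to 155 after atRA (median 12) and 15 to 221 in undifferentiated cells (median 33). Their median log2 ratio was -1.46 (quartiles -1.85 and -1.21), or -1.13 relative to the median kept bin. A loss of 4-fold or more was seen in 367 bins and of 8-fold or more in 38. Summed over the 1955 bins, there were 29677 reads in EBs, 40075 after atRA and 85442 in undifferentiated cells. Quartiles in lost bins were 6 and 20 reads in EBs, 6 and 27 after atRA and 23 and 54 in undifferentiated cells. The high undifferentiated counts are part of the rule.

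Bins near the limits of the rule show how sharp it is. Of 473 bins with exactly 20 reads, 24 gained and 70 lost the mark, and of the 531 bins with 19 reads, left out, 21 would have gained and 63 lost it. Among kept bins with a log2 ratio of 1 to 1.1, 45 of 184 were called gained, the others having an interval that reached 1, and 115 bins lay just under the limit at 0.9 to 1. On the other side 223 of 330 bins at -1.1 to -1 were called lost, and 645 bins lay at -1 to -0.9. The number of losses is thus set in part by where the limit falls in a dense part of the distribution. The 95% interval applies to each bin alone and is not adjusted over the 15229 bins, so some calls can come from counting error. A stricter exact interval left 93 gains and 1011 losses.

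The share of bins called varied with the level of H3K4me3, measured in the atRA library so that neither compared library set the classes. Among the 893 bins with 0 to 4 atRA reads, 2.69% gained and 37.1% lost the mark, with a median log2 ratio of -0.84. Bins with 10 to 19 atRA reads, 3491 in number, had the highest share of gains, 4.58%, with 14.2% lost and a median of -0.21. In the 3644 bins with 40 to 79 reads the shares were 0.906% gained and 6.28% lost, at a median of -0.38. The 666 strongest bins, with 80 to 466 reads, had 2 gains and a median of -0.54, and 9.01% of them were lost. Scaled to autosomal reads, strongly marked bins were therefore lower in EBs as a class, though few passed 2-fold. The lost share was highest where the atRA library had few reads, and such bins were kept only through their reads in EBs or undifferentiated cells.

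The gains and losses were spread over all 19 autosomes. The share of kept bins that gained the mark ran from 1.73% on chromosome 4 to 5.22% on chromosome 18 (23 of 441 bins), with 4.40% on chromosome 8 (46 of 1046). The share that lost it ran from 10.1% on chromosome 10 to 18.2% on chromosome 17 (148 of 815). Chromosome medians lay between -0.38 and -0.27, so every autosome was shifted in the same direction. Read density over whole autosomes in EBs was 0.947 to 1.03 times that in undifferentiated cells. Chromosome 8 held the most reads of any autosome in both libraries, 164835 in EBs and 164982 in undifferentiated cells. Reads were not scaled per chromosome, so a chromosome rich in reads can have more bins past the read minimum and larger RPM differences. The part of this in the gains on chromosome 8 was not tested.

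Most changes were narrow. Merging touching bins of the same direction gave 414 gained loci, of which 393 were a single bin, 18 were 2 bins and 3 were 3 bins wide. Losses formed 1641 loci, of which 1383 were a single bin, 213 were 2 bins, 38 were 3 bins, 3 were 4 bins and 4 were 5 bins wide. Joining bins across gaps of up to 10 kb gave 407 gained and 1499 lost groups. The group with the most bins, chr17:37096001-37142000, held 9 lost bins. Its whole span, uncalled bins included, held 119 reads in EBs, 148 after atRA and 470 in undifferentiated cells. Other lost groups of 6 bins lay at chr10:62346001-62362000 and at chr4:140840001-140862000. Over its whole span the first held 118 reads in EBs, 135 after atRA and 325 in undifferentiated cells, and the second 109, 143 and 332.

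The widest gain was the 6 kb locus chr8:35868001-35874000, which held 139 reads in EBs, 90 after atRA and 36 in undifferentiated cells. Its log2 ratio was 1.92 (95% interval 1.41 to 2.52). At chr6:108608001-108614000 there were 112 reads in EBs, 102 after atRA and 45 in undifferentiated cells, a log2 ratio of 1.30 (0.80 to 1.85). These 2 loci and chr18:83080001-83086000 were the only gains of 3 touching bins. In all of them the atRA library held more reads than the undifferentiated one, whose low count is part of the rule. The chromosome 18 locus held 75 reads in EBs, 74 after atRA and 21 in undifferentiated cells, a log2 ratio of 1.79 (1.12 to 2.61).

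Among gains of 2 bins, the atRA levels fell on both sides. The locus chr8:26210001-26214000 held 95 reads in EBs, 80 after atRA and 26 in undifferentiated cells (log2 ratio 1.83, interval 1.23 to 2.55). At chr7:75096001-75100000 the 3 libraries held 70, 69 and 27 reads in that order, and at chr1:156944001-156948000 they held 60, 69 and 25. Here atRA-treated cells were near the level of EBs. In contrast chr15:79842001-79846000 held 68 reads in EBs, 16 after atRA and 22 in undifferentiated cells, and chr12:55302001-55306000 held 66, 19 and 14. At chr9:59386001-59390000 there were 61 reads in EBs, 25 after atRA and 21 in undifferentiated cells. At these last 3 loci the EB library alone stood high.

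The widest losses were 10 kb long. At chr16:38442001-38452000 there were 46 reads in EBs, 23 after atRA and 251 in undifferentiated cells, a log2 ratio of -2.42 (-2.93 to -1.99). The locus chr15:102070001-102080000 held 55 reads in EBs, 56 after atRA and 201 in undifferentiated cells (-1.85, interval -2.33 to -1.43). At chr18:65740001-65750000 the libraries held 64 reads in EBs, 53 after atRA and 187 in undifferentiated cells, and at chr8:86708001-86718000 32, 30 and 137. At these 4 loci the EB reads lay far below the undifferentiated reads, and the atRA reads lay close to the EB reads except at the first, where atRA-treated cells held the fewest.

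Shorter losses included loci of much higher level. The locus chr18:80378001-80386000 fell furthest among the 10 widest, with 17 reads in EBs, 19 after atRA and 114 in undifferentiated cells, a log2 ratio of -2.68 (-3.57 to -2.0). At chr17:35642001-35648000 there were 94 reads in EBs, 83 after atRA and 289 in undifferentiated cells, a log2 ratio of -1.61 (-1.97 to -1.28). The locus chr14:55190001-55196000 held 90 reads in EBs, 122 after atRA and 298 in undifferentiated cells (-1.72, interval -2.08 to -1.38). The strongest of these loci, chr19:8796001-8802000, held 129 reads in EBs, 149 after atRA and 301 in undifferentiated cells, and its ratio of -1.22 became -0.88 relative to the median kept bin. The last locus therefore kept a high level in EBs, whereas the first was close to bare.

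**Figure D2:**
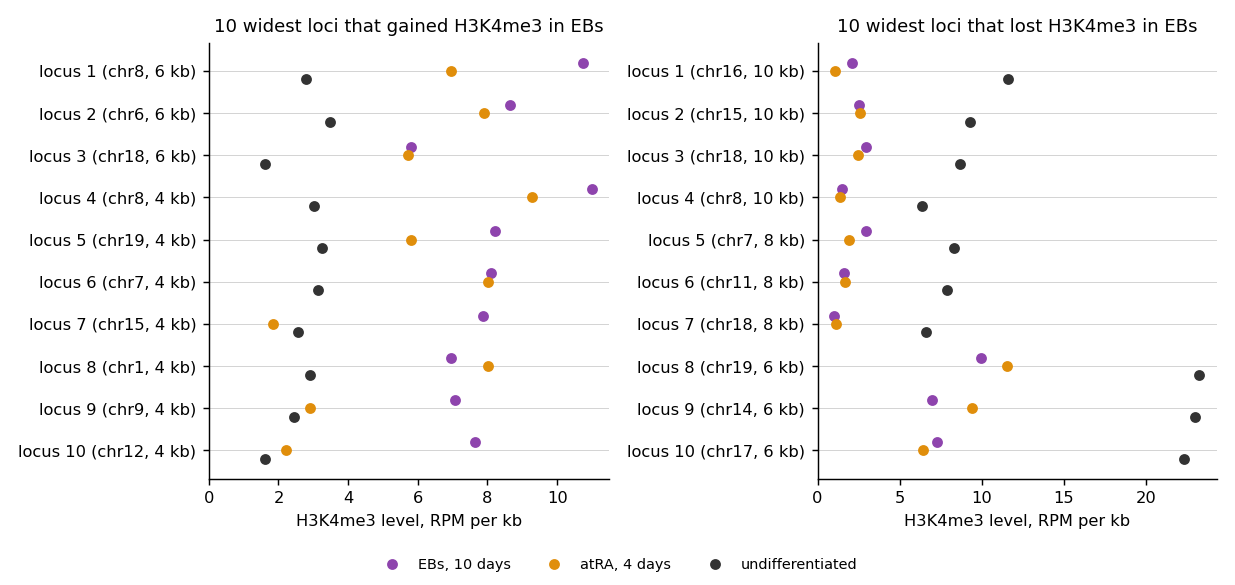
Levels of H3K4me3 (RPM per kb of locus, horizontal axis) in EBs, after atRA and in undifferentiated XT67E1 cells at the 10 widest gained loci (left) and the 10 widest lost loci (right), 1 point per library. EB points lie to the right of undifferentiated points in the left panel and to the left of them in the right panel; the gained locus on chromosome 15 is the 1 whose atRA point, 16 reads, lies below the undifferentiated point, 22 reads.

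By ratio, the most extreme single bin with at least 30 reads that gained the mark was chr13:29042001-29044000, with 34 reads in EBs, 40 after atRA and 2 in undifferentiated cells, a log2 ratio of 3.54 (2.12 to 7.19). The bin chr18:53624001-53626000 held 33 reads in EBs, 19 after atRA and 2 in undifferentiated cells (3.50), and chr1:170360001-170362000 held 33, 39 and 3 (3.09). These bins were nearly bare in undifferentiated cells and marked in both differentiated libraries. Their choice by ratio asks for a low undifferentiated count. At chr12:55302001-55304000, part of the 4 kb locus above, the 37 reads in EBs stood against 7 after atRA and 5 in undifferentiated cells. The bin chr17:12934001-12936000 held 37 reads in EBs, 70 after atRA and 6 in undifferentiated cells, so that atRA-treated cells stood highest there.

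The largest gains in level were smaller than the largest losses. At chr8:35870001-35872000, inside the widest gained locus, the level was 32.9 RPM in EBs and 11.1 RPM in undifferentiated cells. The bin chr11:120810001-120812000 had 31.1 RPM in EBs and 14.4 RPM in undifferentiated cells, from 67 reads in EBs, 38 after atRA and 31 in undifferentiated cells. Another of the 10 largest, chr8:109034001-109036000, held 54 reads in EBs, 20 after atRA and 18 in undifferentiated cells.

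Losses by ratio reached bins with no EB read. The bin chr2:151848001-151850000 held 0 reads in EBs, 1 after atRA and 35 in undifferentiated cells, and the exact interval of its log2 ratio ended at -3.17. At chr2:32714001-32716000 there were 0 reads in EBs, 3 after atRA and 23 in undifferentiated cells, with an interval that ended at -2.52. These were the only 2 of the 1955 lost bins without an EB read. With their EB count put at 3 reads, the limit that a count of 0 allows, the median of the lost bins was still -1.46. It could not have moved, since both bins stay far below it. Next among bins with at least 30 reads came chr7:56178001-56180000 with 1 read in EBs, 1 after atRA and 30 in undifferentiated cells (-3.95, interval -10.26 to -2.32), and chr17:47706001-47708000 with 1, 4 and 30 reads and the same ratio. They were followed by chr3:133180001-133182000 with 2, 4 and 42 reads (-3.84, interval -7.48 to -2.45). All of these bins were close to bare in EBs and after atRA. At chr19:38130001-38132000 the atRA library was intermediate, with 4 reads in EBs, 20 after atRA and 51 in undifferentiated cells.

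The largest losses in level were at bins that stayed marked in EBs. The bin chr11:62416001-62418000 had 33.8 RPM in EBs and 101 RPM in undifferentiated cells, from 73 reads in EBs, 101 after atRA and 217 in undifferentiated cells (log2 ratio -1.56, interval -1.98 to -1.18). At chr7:3218001-3220000 there were 79 reads in EBs, 58 after atRA and 206 in undifferentiated cells, and at chr6:122658001-122660000 there were 55, 39 and 180 (-1.69, interval -2.17 to -1.27). EB levels at these bins were still above the EB median of 21 reads over all kept bins. At chr16:84774001-84776000, with 15 reads in EBs, 22 after atRA and 123 in undifferentiated cells, and at chr11:97488001-97490000, with 22, 50 and 129, the log2 ratios were -2.95 and -2.50. The bin chr6:86474001-86476000, with 104 reads in EBs, 122 after atRA and 221 in undifferentiated cells, was the 1 of the 20 lost bins chosen by ratio or by level that was not lost on the median scale, where its log2 ratio was -0.75.

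A small share of gained and lost loci lay close to a locus of the other direction. Of 414 gained loci, 12 (2.90%) had a lost locus within 10 kb and 38 (9.18%) within 50 kb, which is 12 (0.731%) and 43 (2.62%) of the 1641 lost loci. Of the 12836 bins called neither way, 9.46% had a lost locus within 10 kb and 21.4% within 50 kb, and 2.03% and 5.45% had a gained locus. The difference between called loci and these bins was not tested. In 1 pair the loci touched: chr10:79134001-79136000 held 17 reads in EBs, 1 after atRA and 6 in undifferentiated cells, and the bin before it, chr10:79132001-79134000, held 44, 82 and 102. Another pair involved the chromosome 17 loss described above, chr17:35642001-35648000, 6000 bp from a gain at chr17:35654001-35656000 with 23 reads in EBs, 13 after atRA and 9 in undifferentiated cells.

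The flanks of a change shared its direction to a smaller degree. Uncalled bins next to a gained bin, 824 in number, held 6630 reads in EBs and 5555 in undifferentiated cells, a log2 ratio of 0.26 (0.20 to 0.31). Next to lost bins, 3230 uncalled bins held 27336 and 41694 reads in EBs and undifferentiated cells, a log2 ratio of -0.61 (-0.63 to -0.59). For bins called neither way, the uncalled neighbours stood at -0.23 (-0.24 to -0.22). Losses were the broader change: 10 kb away on the 2 sides their flanks were still at -0.26 and -0.28, against -0.11 and -0.10 around other bins. Flanks of gained bins at 10 kb were at 0.08 and -0.15, and only the second interval excluded 0.

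**Figure D3:**
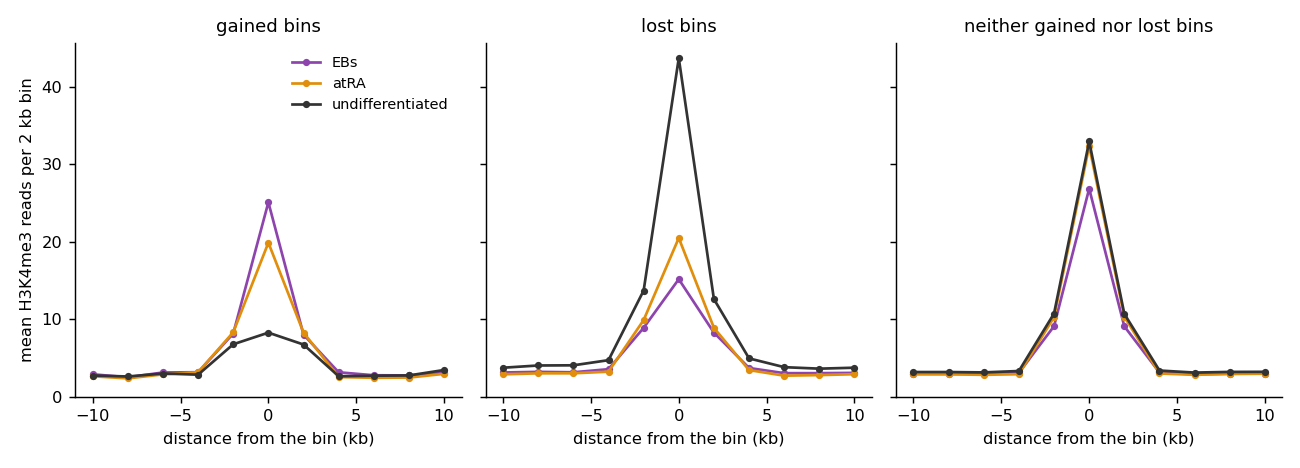
Mean H3K4me3 reads per 2 kb bin (vertical axis) against distance from gained, lost and other kept bins (kb, horizontal axis) in EBs, after atRA and in undifferentiated cells; called bins are left out of the flanks. At distance 0 the mean is 25.1 reads in EBs and 8.28 in undifferentiated cells for gained bins, and 15.2 and 43.7 for lost bins.

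H3K27me3 was measured in other libraries than those that called the bins, in XT67E1 and in LF2 and E14. In undifferentiated cells, gained bins carried the most H3K27me3. The median level was 2.12 RPM in gained bins, 0.499 RPM in lost bins and 0.623 RPM in bins called neither way in XT67E1, each per 2 kb. In LF2 the medians were 2.75, 0.687 and 0.917 RPM, and in E14 2.49, 0.907 and 1.13 RPM, in the same order of bin classes. The order of gained and lost bins was the same in the 3 lines, of which 2 took no part in the H3K4me3 calls.

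Ranked by undifferentiated H3K27me3 of XT67E1, the quintile of kept bins with the most H3K27me3 contained 299 of the 438 gained bins, so that 9.82% of it gained H3K4me3, against 0.591% of the lowest quintile. Losses ran the other way, with 6.60% in the highest quintile and 16.3% in the lowest. Ranked by LF2, 8.73% of the highest quintile and 0.920% of the lowest gained the mark, and 8.24% and 17.9% lost it. By E14 the gained shares were 7.39% and 1.08%, and the lost shares 9.68% and 16.9%. Bins of the highest quintile in XT67E1 had lower H3K4me3 than those of the lowest, with medians of 17 reads in EBs and 16 in undifferentiated cells, against 25 and 34. The shares were therefore also taken among bins with 10 to 39 atRA reads, where the undifferentiated level still differed, with medians of 20 reads in EBs and 27 in undifferentiated cells in the lowest XT67E1 quintile and 17 and 16 in the highest. There 10.4% of the highest XT67E1 quintile and 0.887% of the lowest gained the mark, and 6.0% and 13.9% lost it. Within that range 9.74% and 1.22% gained and 7.49% and 15.3% lost the mark by LF2, and 8.46% and 1.51% gained and 9.64% and 13.7% lost it by E14. By E14 the lost share was 9.54% in the middle quintile and 9.80% in the next, so it did not go on falling toward the highest. How far the H3K4me3 level sets these shares was not tested.

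**Figure D4:**
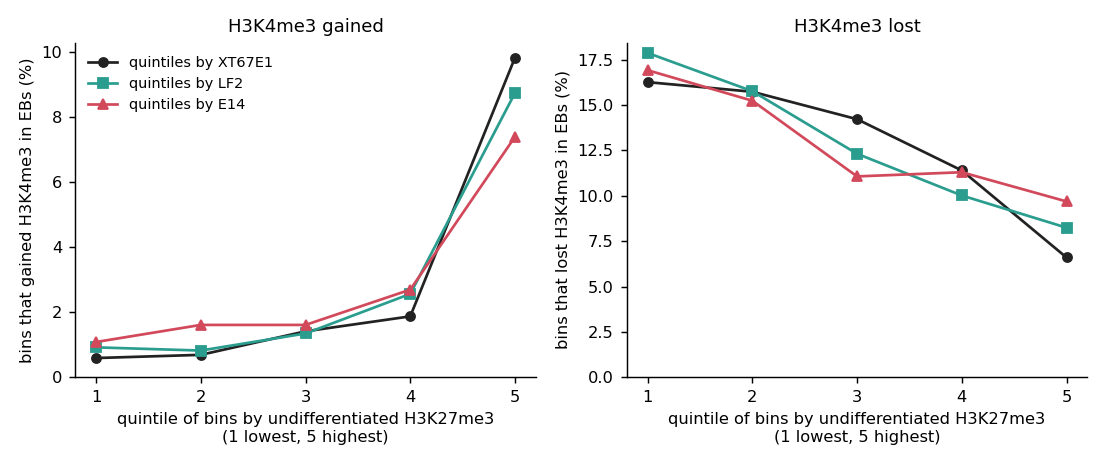
Share of kept bins (%, vertical axis) that gained (left) or lost (right) H3K4me3 in EBs, by quintile of undifferentiated H3K27me3 (horizontal axis, 1 lowest, 5 highest) as measured in XT67E1, LF2 or E14. The gained share reaches 9.82%, 8.73% and 7.39% in the highest quintile by XT67E1, LF2 and E14, where the lost share is lowest, at 6.60%, 8.24% and 9.68%.

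The change of H3K27me3 between EBs and undifferentiated cells also differed between the classes. In gained bins the median H3K27me3 log2 ratio was -0.19 in XT67E1, -0.81 in LF2 and -0.59 in E14, which is 0.52, 0.62 and 0.36 below the median of bins called neither way in the same line. In lost bins the medians were 0.69 in XT67E1, 0.09 in LF2 and -0.0028 in E14, which is 0.36, 0.28 and 0.22 above it. Lost bins thus stood above, and gained bins below, the other bins in each line, although the level of the other bins itself differed between lines. H3K27me3 was at least 2-fold higher in EBs in 25.5% of all kept bins in XT67E1, 15.9% in LF2 and 10.0% in E14, against 39.6%, 26.4% and 18.5% of lost bins and 7.99%, 6.16% and 7.08% of gained bins. It was at least 2-fold lower in EBs in 4.43% of kept bins in XT67E1, 17.5% in LF2 and 23.8% in E14, against 12.3%, 39.7% and 39.5% of gained bins and 2.61%, 9.72% and 17.2% of lost bins. These shares come from 1 library per line and condition and, in most bins, from few reads. Median H3K27me3 reads of EBs and undifferentiated cells in lost bins were 6 and 4 in XT67E1, 3 and 3 in LF2, and 4 and 4 in E14. In bins called neither way they were 6 and 5, 3 and 4, and 4 and 5. Gained bins held more, 12 and 17, 6 and 12, and 7 and 11. A 2-fold change in a lost bin can thus be a few reads, and the classes were not matched for undifferentiated H3K27me3.

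**Figure D5:**
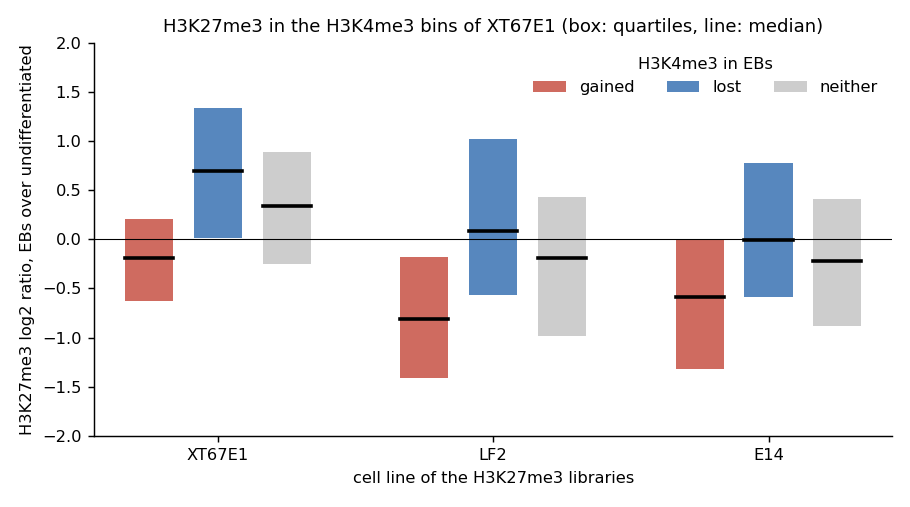
H3K27me3 log2 ratio of EBs over undifferentiated cells (vertical axis) in bins that gained, lost or did neither in H3K4me3 of XT67E1, for the H3K27me3 libraries of each line (horizontal axis); boxes span the quartiles and lines mark medians. In each line the gained median (-0.19, -0.81 and -0.59) lies lowest and the lost median (0.69, 0.09 and -0.0028) highest.

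H3K27me3 was lower in EBs in all 3 lines in 44.3% of gained bins, 5.42% of lost bins and 12.8% of all kept bins. It was higher in all 3 in 5.48% of gained bins, 27.9% of lost bins and 16.1% of all kept bins. Of the 10 widest gained loci, 9 had less H3K27me3 in EBs in all 3 lines, against 178 of all 414 gained loci (43.0%). Of the 10 gained bins chosen by ratio 9 were lower in all 3, and of the 10 chosen by level 4 were lower and 1 higher in all 3. At chr12:55302001-55306000 H3K27me3 reads were 12 in EBs and 57 in undifferentiated cells in XT67E1, 2 and 25 in LF2, and 9 and 30 in E14. The exception was chr8:26210001-26214000, with 32 and 24 reads in EBs and undifferentiated cells in XT67E1, 11 and 6 in LF2, and 34 and 32 in E14. Of the 10 widest lost loci, 5 had more H3K27me3 in EBs in all 3 lines and none had less in all 3, against 448 (27.3%) and 90 (5.48%) of all 1641 lost loci. Of the 10 lost bins chosen by ratio 2 were higher in all 3 lines, and of the 10 chosen by level 4 were higher and 1 lower. The 10 widest lost loci were higher in EBs in XT67E1, 8 of them in LF2 and 7 in E14. Taken singly, 79.6% of lost bins were higher in EBs in XT67E1, 63.1% in LF2 and 47.9% in E14. Among all kept bins these shares were 70.2%, 49.3% and 36.7%. At chr17:35642001-35648000 H3K27me3 reads were 31 in EBs and 10 in undifferentiated cells in XT67E1, 22 and 3 in LF2, and 76 and 4 in E14, so that the EB library was higher in each line.

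Over the 3 lines the change of H3K27me3 in EBs was tested with limma in 216287 bins of 10 kb, with the line as a block and p-values adjusted by Benjamini and Hochberg over all bins tested. Of these, 204 rose (0.0943%) and 105 fell (0.0485%) at an adjusted p under 0.05. Of 1659 such bins that held a lost H3K4me3 bin, 1629 had enough reads to be tested, and 74 of them rose (4.54%) and 0 fell, with a median log2 ratio of 0.23. All 416 that held a gained bin were tested, and 19 fell (4.57%) and 0 rose, with a median of -0.36. At an unadjusted p under 0.05, limma had 354 of the 1629 bins with a loss rising and 38 falling. Of the 416 bins with a gain, 153 fell and 6 rose at that limit. Over all 216287 tested bins, 8842 rose and 7760 fell at that limit. By limma voom 1 bin with a loss fell and 0 bins with a gain rose. Over the 11403 tested bins that held any kept H3K4me3 bin, 121 rose (1.06%) and 42 fell (0.368%), with a median of 0.03.

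These counts depended on the block and on the lines. Without the replicate block 11 of the bins with a loss rose and 3 of the bins with a gain fell. Without XT67E1, the line that gave the H3K4me3 calls, 46 of the bins with a loss rose and 2 fell, and 29 of the bins with a gain fell. Over all 10 kb bins, 179 fell without XT67E1 and 66 without LF2. In the fit over 3 lines most of the 46.2 degrees of freedom came from pooling over bins. In the fits that leave out a line the error came in effect wholly from this pooling, with 216287 degrees of freedom. Their counts are thus not like for like with those of the fit over 3 lines.

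Among bins with a loss, the smallest p was at chr7:152040001-152050000, where H3K27me3 reads were 84 in EBs and 15 in undifferentiated cells in XT67E1, 79 and 7 in LF2, and 195 and 31 in E14. Its log2 ratio by limma was 2.79 (SE 0.24, adjusted p = 6.7e-10). At chr7:28110001-28120000, which holds the 8 kb loss chr7:28112001-28120000, H3K27me3 rose by 2.31 (SE 0.24, limma adjusted p = 1.1e-07). That loss held 51 H3K4me3 reads in EBs, 33 after atRA and 144 in undifferentiated cells. The bins chr4:135800001-135810000, chr14:71020001-71030000 and chr4:129050001-129060000 rose by 2.76, 2.20 and 2.41. In these 5 bins the EB library was higher in each of the 3 lines. The bins were chosen by p-value from these same libraries, so this describes them and is no check.

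Among bins with a gain, H3K27me3 fell most clearly at chr18:83080001-83090000, which holds the 6 kb gain of chromosome 18. H3K27me3 reads there were 65 in EBs and 139 in undifferentiated cells in XT67E1, 30 and 100 in LF2, and 17 and 128 in E14, a log2 ratio by limma of -1.87 (SE 0.26, adjusted p = 3.5e-05). At chr12:55300001-55310000, which holds the 4 kb gain chr12:55302001-55306000, the ratio was -1.60 (SE 0.25, limma adjusted p = 0.00054). At chr19:53380001-53390000 it was -1.52 (SE 0.26, limma adjusted p = 0.0024), and the gain within it, chr19:53384001-53388000, held 71 H3K4me3 reads in EBs, 50 after atRA and 28 in undifferentiated cells. The bins chr2:11420001-11430000 and chr4:151360001-151370000 fell by 1.69 and 1.56. In these 5 bins the EB library was lower in each of the 3 lines. They too were chosen by p-value from these same libraries, so this is a description.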

How the data were processed

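Per the labels' protocols, chromatin was fixed with formaldehyde, sheared by sonication, immunoprecipitated and sequenced on Illumina Genome Analyzers. The deposited files hold read positions, intervals of 200 bp with no strand and no value (unit: other), on mm9 per the submitters' processing notes. Which aligner and filters were used, and where the 200 bp length comes from, is not given in the sources used here. Repeated intervals were not found, and 0 columns were left unused for want of a sample. The H3K4me3 files held 2252395 reads each. The H3K27me3 files of XT67E1 held 8380007 and those of both other lines 4531733.

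Interval midpoints were counted in 2 kb bins with Python 3.11.15, numpy 2.4.6, pandas 2.3.3 and scipy 1.17.1. Ratio intervals are exact conditional binomial (Clopper-Pearson) intervals at 95%. Reads are not independent molecules, so intervals and floors cover counting error only. H3K27me3 was counted in the same 2 kb bins and, for limma 3.58.1 in R 4.3.3, in 10 kb bins with at least 60 reads over 6 libraries, on log2 RPM with 1 read added and an intensity trend, two-sided. The EB and undifferentiated libraries of a line come from the same line, which pairs them; the correlation of their deviations was 0.139 (XT67E1), 0.069 (LF2) and 0.174 (E14). For each bin, limma combined how far its 3 lines differed with an error pooled over bins. Most of the 46.2 degrees of freedom came from the pooling. The p-values therefore reflect mainly this pooled error, and only in small part the differences between lines in the bin itself. The size rule and the limma fit were tested on simulated data.

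Named regions are, per direction, the 10 called bins with the most extreme ratio among those with at least 30 reads, the 10 loci with the most bins, the 10 bins with the largest RPM difference, and the 5 smallest limma p-values in bins holding a called bin; a selection is printed. The loci that touch or neighbour an opposite call, the groups within 10 kb and the bin chr2:32714001-32716000 were singled out after their values were seen. The bins, rules and lists were chosen with earlier results of these data known. Gene lists and markers were not placed, for want of an mm9 annotation.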

Additional observations from a re-analysis of the deposited data

Results flagged for a closer look

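In kept H3K4me3 bins called neither way, the median H3K27me3 log2 ratio of EBs over undifferentiated cells was 0.334 in XT67E1, against -0.193 in LF2 and -0.225 in E14. These bins were flagged because the median lay above 0 in 1 line and below 0 in the other lines. With 1 library per line and condition the difference was not tested.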

How the results depend on the processing

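The balance of some counts changed under the alternatives. Named bins were recomputed only with median scaling, background scaling and a pseudocount of 5 reads. These settings shift all ratios alike or shrink them, by too little to reverse a bin past 2-fold. That no named bin changed direction is therefore no check of it. Scaling to the median ratio gave 1006 gained and 1076 lost bins in 946 and 907 loci, so that gained loci outnumbered lost ones, with a median of 0. Background scaling, from 675833 EB and 617072 undifferentiated reads in thinly covered bins, moved the median to -0.46 and a pseudocount of 5 reads moved it to -0.29. With no read minimum there were 2938 gained and 4115 lost bins in 2859 and 3524 loci and a median of 0, and with at least 40 reads 104 and 1086 bins in 99 and 952 loci and a median of -0.39. The median was -0.39 in 1 kb bins and -0.28 in 4 kb bins. A stricter exact interval left 93 gained and 1011 lost bins. Of the 20 gained and 20 lost bins named by ratio or level, 2 gained bins were no longer called with background scaling, 1 gained bin with the larger pseudocount and 1 lost bin with median scaling. The cause was not tested.

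For H3K27me3 in gained bins, the median with 10 kb bins was -0.62 in LF2 and -0.43 in E14, and its distance from other bins was -0.42 in XT67E1. With H3K27me3 scaled to its median ratio it was -0.084 in XT67E1, -0.48 in LF2 and -0.75 in E14. With H3K4me3 called on the median scale it was -0.12 in XT67E1 (-0.45 from other bins) and -0.65 in LF2. In lost bins it was 0.54 in XT67E1 and 0.090 in E14 with 10 kb bins, 0.79 in XT67E1, 0.42 in LF2 and -0.16 in E14 with median scaling, and 0.17 in E14 (0.36 from other bins) with median-scale calls. Lost bins in E14 therefore have no settled sign of their own.

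Without the replicate block, which pairs the libraries of a line, limma had 19 bins rising and 4 falling, with 11 rising among bins with a loss and 3 falling among bins with a gain. With at least 120 reads there were 312 rising and 201 falling, and 32 falling among bins with a gain. Limma voom had 177 falling, 32 of them with a gain, and with gains called on the median scale 29 fell. Leaving out each line in turn gave 148 to 248 rising and 66 to 179 falling. Among them 46 to 86 rising bins held a loss and 14 to 29 falling bins held a gain. Those fits take their error in effect wholly from pooling over bins, so their counts are not like for like with the fit over 3 lines. Without XT67E1 the 179 falling bins outnumbered the 148 rising ones. The depth of 2252395 reads limits calls at weak bins, whose intervals are wide.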
